A study of Mus musculus with 6 samples.

Results

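The transcription factors that pattern the palatal mesenchyme were measured by bulk RNA sequencing in palatal shelves of mouse embryos at E14.5. Their members were 10 genes given by name, namely Shox2, Msx1, Barx1, Meox2, Tbx22, Mn1, Osr1, Osr2, Pax9 and Meox1, and each was found once by its Ensembl ID among the 55631 gene IDs of the table. The genotype of the 3 control embryos was p130Casfl/fl, with loxP-flanked alleles of p130Cas and no Cre named. The 3 KO embryos carried the same alleles with a CAG-Cre transgene, so the floxed alleles were shared by both groups. CAG is a broadly active promoter, and the labels name no cell type to which the deletion was limited. p130Cas, encoded by Bcar1, is an adaptor protein of integrin adhesion sites.

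The palatal shelves grow from the maxillary processes as mesenchyme, largely of neural crest origin, under an epithelium, and then lift and fuse into the roof of the mouth. Homeobox, T-box, paired-box and zinc-finger factors divide this mesenchyme along its length and width. Shox2 and Msx1 are known from the anterior shelf, where Msx1 works in a circuit with Bmp4. Barx1, Meox2, Tbx22 and Mn1 are known from the posterior shelf, and Osr1, Osr2 and Pax9 from its oral and nasal, or medial and lateral, sides. Loss of Msx1, Tbx22, Mn1, Osr2 or Pax9 is known to cause a cleft or submucous cleft palate in mice.

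All 10 factors were expressed in all 6 libraries, and none of them passed the test between KO and control shelves. The lowest value was 1.82 FPKM, a level scaled by gene length and library size, for Tbx22, and the highest 171 FPKM for Barx1. Meox1 was lower in all 3 KO libraries than in all 3 control libraries, and the groups overlapped for the other 9 factors. Of the 45 pairs of factors, Shox2 and Tbx22 had the highest correlation, and their levels stood in the same order over the 6 libraries. This correlation did not pass after adjustment over the pairs. The 2 genes are known from opposite ends of the shelf.

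The libraries differed in more than genotype. FPKM summed to between 384979 and 424993 per library, and read depth is unknown. Xist and Ddx3y marked 5 embryos as male and KO replicate 2 as female. Bcar1 stood at 1.80, 1.97 and 2.09 FPKM in controls and 1.69, 1.69 and 1.31 FPKM in KO libraries, and did not pass (limma, adjusted p = 1.00), so the whole-gene level is a weak check of the deletion. All 10 markers of palatal mesenchyme, among them Prrx1, Twist1 and Col1a1, were above 0 in all libraries, and their summed level was 2485 to 3063 FPKM in controls and 2320 to 3282 FPKM in KO libraries. The 12 cartilage markers summed to 329, 288 and 624 FPKM in control replicates 1 to 3 and to 734, 153 and 133 FPKM in KO replicates 1 to 3. The 11 Hox genes of the neck and trunk, which facial mesenchyme lacks, summed to 0.703 to 0.753 FPKM in controls and to 4.16, 1.92 and 0.310 FPKM in KO replicates 1 to 3. Separate litters are not named in the labels, and the p-values below cover the spread between these samples alone, which may be technical. In bulk tissue, fewer cells of a type and less RNA per cell cannot be told apart.

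**Figure D1:**
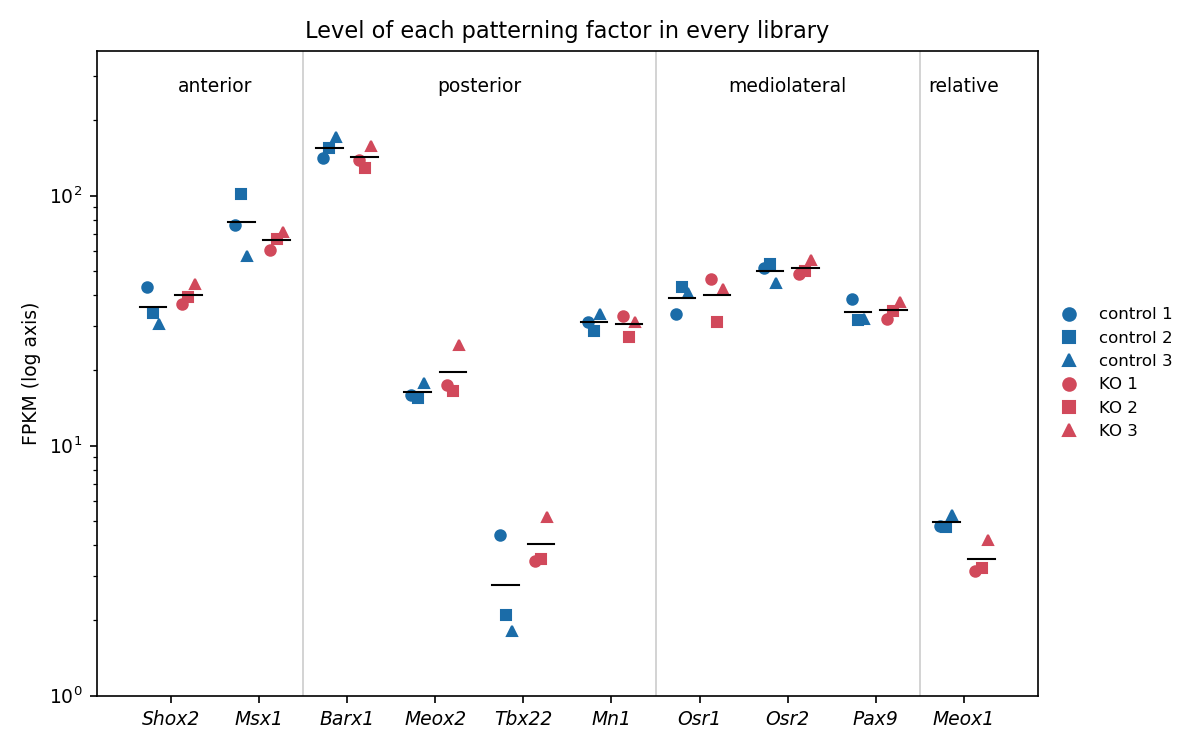
FPKM (log axis) of the 10 patterning factors in the 3 control libraries (blue) and the 3 KO libraries (red), grouped by the part of the shelf they are known from. Symbols stand for the replicate and black lines for the group means. Barx1 is the highest at 129 to 171 FPKM, and Meox1 is the only factor whose groups do not overlap.

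The order of the factors was kept in part from library to library. Barx1, Msx1, Osr2 and Meox2 held their place in all 6, whereas Osr1 was above Shox2, and Meox1 above Tbx22, in only 3. Barx1 was the highest, at 129 to 171 FPKM, and did not overlap with Msx1, at 57.4 to 101 FPKM. Osr2 followed at 44.6 to 55.2 FPKM, below Msx1 in each library. Osr1, Shox2, Pax9 and Mn1 overlapped with their neighbours in this order, with means over the 6 libraries of 39.6, 38.1, 34.5 and 30.9 FPKM. Meox2 was lower again, at 15.6 to 25.3 FPKM, without overlap with Mn1. Meox1, at 3.15 to 5.28 FPKM, and Tbx22, at 1.82 to 5.18 FPKM, were the lowest and overlapped with each other. These are levels per length, so they can be compared between genes. The rank order of the 10 levels had a Spearman rho between 0.879 and 0.988 over the 15 pairs of libraries, as a description across genes. Among the 14714 tested genes, which average at least 1 FPKM, where the median gene stood at 9.25 FPKM, Barx1 lay at percentile 97.9 and Tbx22 at percentile 23.8.

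The anterior factor Shox2 (ENSMUSG00000027833) is a homeobox gene at chr3:66971727-66981771 (GRCm38, minus strand). Its FPKM was 43.1, 34.1 and 30.7 for control replicates 1 to 3, against 37.0, 39.3 and 44.4 for KO replicates 1 to 3, the order of replicates used below. Control replicate 1 lay with the KO libraries and above KO replicates 1 and 2, so the groups overlapped. The difference in log2(FPKM + 1), KO minus control, was 0.17 ± 0.13 (SE; 95% interval -0.13 to 0.46; limma, adjusted p = 1.00). Without control replicate 1 it was 0.30 and without control replicate 3 it was 0.064. The 5′ end of Shox2 overlaps the first 382 bases of Rsrc1 on the other strand, whose level was 13.4 to 16.3 FPKM over the 6 libraries. The strand setting of the authors' counting is not given, so reads in this stretch cannot be assigned.

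Msx1 (ENSMUSG00000048450), the other anterior factor, lies at chr5:37820485-37824583 (minus strand). Its level was 76.3, 101 and 57.4 FPKM in controls and 60.5, 66.9 and 71.7 FPKM in KO libraries. The KO values all lay inside the range of the controls, which was set by control replicate 2 above and control replicate 3 below. The difference was -0.20 ± 0.18 (SE; 95% interval -0.63 to 0.22; limma, adjusted p = 1.00), and without control replicate 2 it was 5e-04. Without control replicate 3 it was -0.40. Bmp4, the secreted signal of the Msx1 circuit, stood at 15.2, 15.2 and 14.7 FPKM in controls and at 14.6, 11.8 and 14.4 FPKM in KO libraries. All 3 KO values lay below all 3 controls, and it did not pass (limma, adjusted p = 1.00).

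The posterior homeobox factor Barx1 (ENSMUSG00000021381) lies at chr13:48662998-48666507 (plus strand). It stood at 141, 155 and 171 FPKM in controls and at 139, 129 and 158 FPKM in KO libraries. The difference was -0.13 ± 0.10 (SE; 95% interval -0.36 to 0.10; limma, adjusted p = 1.00). KO replicate 3 lay above control replicates 1 and 2. Without KO replicate 3 the difference was -0.21, and without control replicate 3 it was -0.061.

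Meox2 (ENSMUSG00000036144), a mesenchyme homeobox gene at chr12:37108540-37179534 (plus strand), stood at 15.9, 15.6 and 17.9 FPKM in controls. In KO libraries it stood at 17.5, 16.6 and 25.3 FPKM. The high value belonged to KO replicate 3 alone, and KO replicates 1 and 2 lay within the control range. The difference of 0.23 ± 0.15 (SE; 95% interval -0.12 to 0.58; limma, adjusted p = 1.00) was 0.047 without KO replicate 3.

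Tbx22 (ENSMUSG00000031241), a T-box gene whose human counterpart is mutated in X-linked cleft palate, lies at chrX:107667964-107688978 (plus strand). It stood at 4.40, 2.10 and 1.82 FPKM in controls and at 3.46, 3.51 and 5.18 FPKM in KO libraries. Control replicates 2 and 3 were the lowest of the 6 libraries, and control replicate 1 lay above KO replicates 1 and 2. The female library, KO replicate 2, differed little from the male KO replicate 1. The difference of 0.47 ± 0.25 (SE; 95% interval -0.12 to 1.05; limma, adjusted p = 1.00) was the largest of the 10 factors in size and also the widest in its interval. Leaving out control replicate 1 gave 0.76 and leaving out control replicate 3 gave 0.29, where adjusted p = 0.391 and 1.00 (limma), and over all alternatives its adjusted p lay between 0.307 and 1.00.

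Mn1 (ENSMUSG00000070576), a transcriptional coregulator that acts upstream of Tbx22 in the posterior shelf, lies at chr5:111417362-111457033 (plus strand). It stood at 31.2, 28.7 and 33.7 FPKM in controls and at 33.1, 27.2 and 31.3 FPKM in KO libraries. The difference was -0.030 ± 0.091 (SE; 95% interval -0.24 to 0.18; limma, adjusted p = 1.00), close to 0 under each scaling. It was 6e-04 with quantile normalization, 4e-04 after rescaling to TPM and -0.0145 with median-of-ratios scaling. The median over all tested genes moved as well, from -0.021 to -0.0077, 0.0079 and -0.0062 under the same 3 scalings.

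The zinc-finger genes Osr1 and Osr2 are relatives, of which Osr2 is needed for the growth and mediolateral patterning of the shelf. Osr1 (ENSMUSG00000048387), at chr12:9570116-9581500 (plus strand), stood at 33.7, 42.9 and 40.7 FPKM in controls and at 46.4, 31.2 and 42.5 FPKM in KO libraries. KO replicate 1 was the highest and KO replicate 2 the lowest of all 6, so the KO libraries spanned the controls. The difference was 0.021 ± 0.15 (SE; 95% interval -0.33 to 0.37; limma, adjusted p = 1.00). It was 0.19 without KO replicate 2 and -0.093 without KO replicate 1. Osr2 (ENSMUSG00000022330), at chr15:35296098-35303305 (plus strand), stood at 51.4, 53.3 and 44.6 FPKM in controls and at 48.7, 49.8 and 55.2 FPKM in KO libraries. Its difference was 0.043 ± 0.085 (SE; 95% interval -0.16 to 0.24; limma, adjusted p = 1.00), the narrowest interval of the 10 factors. Osr2 was above Osr1 in all 6 libraries.

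Pax9 (ENSMUSG00000001497), a paired-box gene upstream of Osr2 in the shelf, lies at chr12:56691767-56712822 (plus strand). It stood at 38.6, 31.8 and 32.3 FPKM in controls and at 32.1, 34.7 and 37.6 FPKM in KO libraries. Both groups spanned nearly the same range, and the difference was 0.028 ± 0.094 (SE; 95% interval -0.19 to 0.25; limma, adjusted p = 1.00). The antisense gene Gm15524 overlaps 1198 bases of Pax9 and stood at 3.66 to 4.35 FPKM over the 6 libraries, in the same uncertainty about strand.

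Meox1 (ENSMUSG00000001493), the relative of Meox2 and best known from the somites, lies at chr11:101877510-101894374 (minus strand). Its level was 4.78, 4.74 and 5.28 FPKM in controls and 3.15, 3.25 and 4.20 FPKM in KO libraries. All 3 KO values lay below all 3 controls, and the KO mean of 3.53 ± 0.581 FPKM compared with 4.94 ± 0.300 FPKM (SD, n = 3 each). The difference was -0.40 ± 0.11 (SE; 95% interval -0.65 to -0.14), with an unadjusted p of 0.00766 and an adjusted p of 0.751 in limma, so it did not pass. A two-sided exact permutation test returned p = 0.1, the smallest that 3 libraries against 3 allow. Meox1 was below control in each of the 18 alternatives in which it was tested, but in most of them this direction was fixed in advance. The filters, the eBayes options and the replicate block cannot alter the difference, which stayed at -0.40. Leaving out 1 library cannot turn its sign where the groups do not overlap, and the sex term gives the same value as leaving out KO replicate 2. The adjusted p of Meox1 in limma lay between 0.192 and 1.00 over the alternatives. The antisense gene Gm11551 lies inside Meox1 and was listed at 0 in all libraries but KO replicate 1, at 0.201 FPKM.

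In limma, 0 of the 10 factors passed at an adjusted p under 0.05, where 0.333% of the 14714 tested genes did. At an unadjusted p under 0.05 there was 1 factor, Meox1, beside 4.01% of the tested genes. The groups did not overlap for 1 of the 10, Meox1, which was lower in KO, and for 9.06% of all tested genes, 5.79% with KO lower. A share of 1 in 10 is near this background. There were 6 factors above 0 and 4 below, with a median difference of 0.024, beside -0.021 over all tested genes. A p that misses the threshold does not show that levels were alike, and the 95% intervals give what these data allow.

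**Figure D2:**
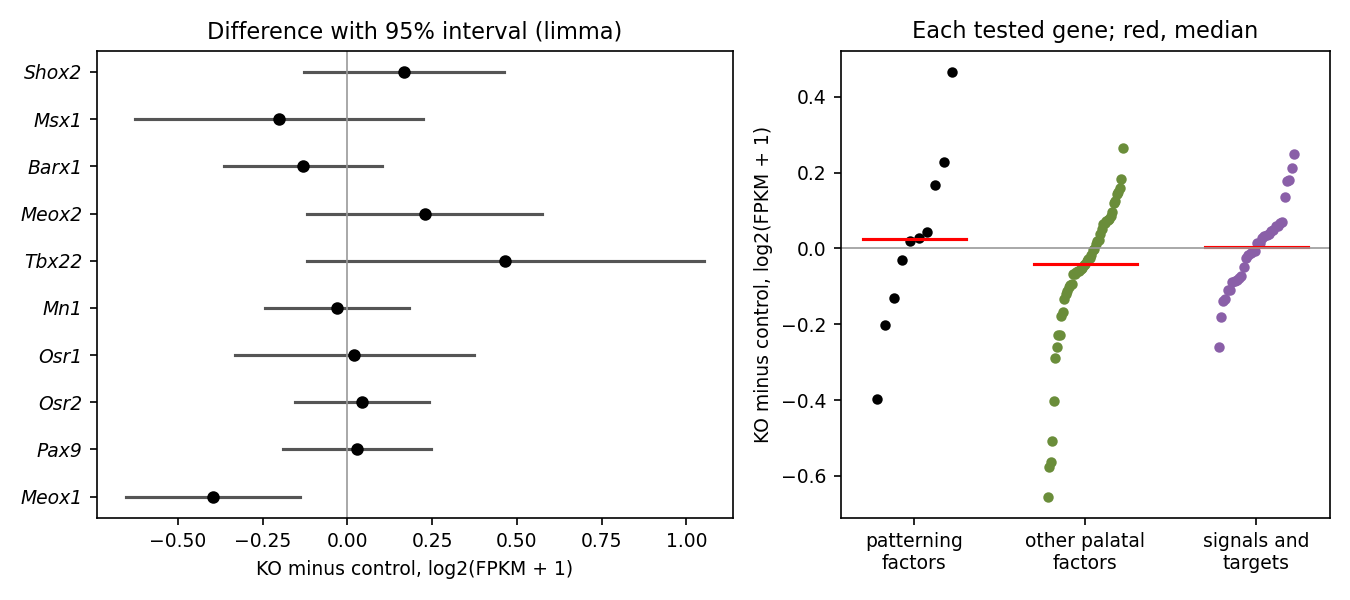
Left, the difference in log2(FPKM + 1) between KO and control for each patterning factor, with its 95% interval from limma. Only the interval of Meox1, from -0.65 to -0.14, does not include 0, and its adjusted p of 0.751 did not pass. Right, each tested gene of the patterning factors, the other palatal transcription factors and the linked signals and targets is a point and the median a red line, at 0.024, -0.040 and 0.0029.

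Among the marker lists, those of 2 other cell types had summed levels without overlap between the groups, as Meox1 had. They are named because of this, and 9.06% of single tested genes had no overlap. A marker is called below or above control here by the sign of its mean difference in log2(FPKM + 1). Over all tested genes 5968 were above and 8746 below 0. All 10 endothelial markers were below control in KO, and their summed level was 160 to 182 FPKM in controls and 128 to 156 FPKM in KO libraries. All 11 tested leukocyte markers of 12 were above control, with sums of 74.3 to 94.6 FPKM in controls and 108 to 148 FPKM in KO libraries. None of the 22 listed endothelial and leukocyte markers was at 0 in any library, and none passed in limma, where 0.333% of all tested genes did. Other lists leaned to 1 side with sums that overlapped between the groups. All 15 tested skeletal muscle markers of 16 were below control, with sums of 344 to 597 FPKM in controls and 345 to 506 FPKM in KO libraries. All 12 cartilage markers were below control by this mean difference, although KO replicate 1 had the highest cartilage sum of the 6 libraries, 734 FPKM. So were 9 of the 11 markers of neurons and glia, whose sums were 65.2 to 110 FPKM in controls and 52.8 to 103 FPKM in KO libraries. The part of these cells in the level of Meox1 was not tested.

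The ratio of Meox2 to Meox1 within a library does not depend on the scaling of that library. It was 3.33, 3.28 and 3.38 in control replicates 1 to 3 and 5.55, 5.10 and 6.02 in KO replicates 1 to 3. The controls lay close together and the KO libraries all lay above them. The mean was 3.33 ± 0.0535 in the controls and 5.56 ± 0.459 in KO libraries (SD, n = 3 each), a difference in the log2 ratio of 0.73 ± 0.070 (SE). A two-sided exact permutation test returned p = 0.1, again the smallest possible, and p = 0.6 adjusted over 6 ratios. These ratios were chosen after the values had been seen, and a ratio bears on unequal change of the relatives, not on which of them changed.

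The groups overlapped for the other 5 ratios. Shox2 over Barx1, genes of the anterior and the posterior shelf, was 0.305, 0.220 and 0.179 in controls and 0.266, 0.304 and 0.281 in KO libraries (exact permutation test, p = 0.4). Osr2 over Osr1 was 1.29 ± 0.217 in control and 1.31 ± 0.273 in KO libraries (SD, n = 3 each). Msx1 over its relative Msx2 was 12.8 ± 6.03 and 17.5 ± 7.02. Barx1 over Barx2 was 39.2 ± 11.7 and 40.4 ± 9.86, and Pax9 over Pax1 was 8.64 ± 2.36 and 13.2 ± 8.71. The longest stretch of identical bases between the annotated transcripts of such relatives was 12 for Meox1 and Meox2, 22 for Msx1 and Msx2, 23 for Osr1 and Osr2 and 26 for Pax9 and Pax1.

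**Figure D3:**
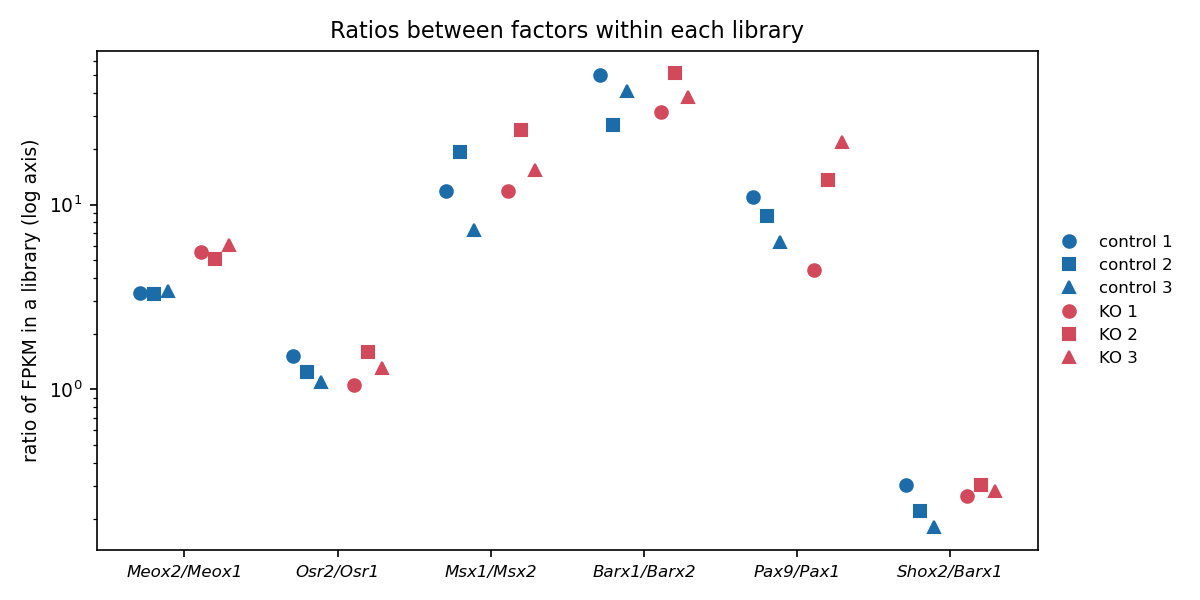
Ratio of FPKM between pairs of factors within each library (log axis), controls in blue and KO in red, with symbols for the replicate. The Meox2 to Meox1 ratio runs from 3.28 to 3.38 in controls and from 5.10 to 6.02 in KO libraries, and the groups overlap for the other 5 ratios.

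The balance of the anterior over the posterior factors was the mean log2(FPKM + 1) of Shox2 and Msx1 minus that of Barx1, Meox2, Tbx22 and Mn1. It was 1.20, 1.44 and 0.86 in controls and 0.95, 1.17 and 0.93 in KO libraries. The KO libraries lay inside the control range, and the difference of -0.15 was smaller than the spread between replicates of 0.23 (SD pooled over groups). It was -0.012 without control replicate 2, the library with the high Msx1 value, and -0.30 without control replicate 3.

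Variation between libraries differed among the factors. The coefficient of variation over the 6 libraries was 38.0% for Tbx22, 21.8% for Msx1, 20.6% for Meox1 and 20.0% for Meox2. It was lowest for Osr2 at 7.37%, Mn1 at 8.08% and Pax9 at 8.65%. The median tested gene varied by 9.53%, and 7 of the 10 factors lay above it. KO replicate 3 had all 10 factors above their own mean over the 6 libraries, from 0.008 in log2(FPKM + 1) for Meox1 to 0.54 for Tbx22. It held the highest value of 4 of them, Shox2, Meox2, Tbx22 and Osr2. The median KO minus control difference over all tested genes was -0.021, and -0.035 without this library. The share of all tested genes above their own mean in KO replicate 3 was not computed, so a trait of the factors cannot be told from one of the library. In that library the markers of palatal mesenchyme had their highest sum, 3282 FPKM, and the 15 markers of oral and palatal epithelium their lowest, 380 FPKM beside 435 to 661 FPKM in the others. KO replicate 2, with the highest epithelial sum, had 3 factors above their mean and the lowest value of 3, Barx1, Mn1 and Osr1. However, KO replicate 1 also had 3 factors above their mean, at an epithelial sum of 473.5 FPKM. Control replicate 3 held the lowest value of 4 factors at a low epithelial sum of 435 FPKM. The part of the tissue make-up in these levels was not tested.

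**Figure D4:**
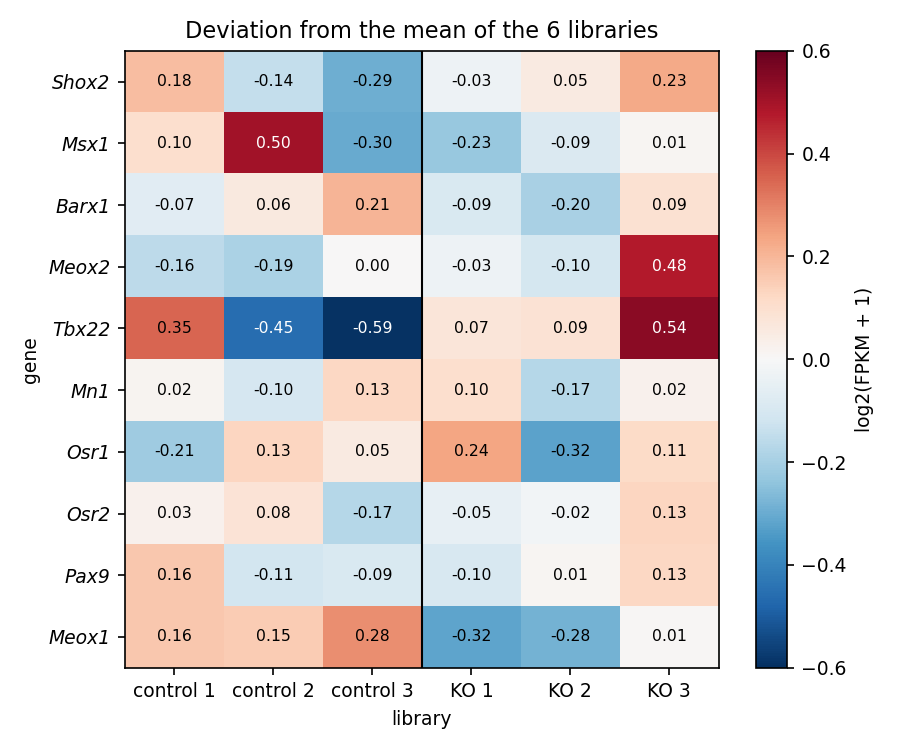
Deviation of each patterning factor (rows) in each library (columns) from its mean over the 6 libraries, in log2(FPKM + 1), with controls left and KO right of the line. The KO replicate 3 column is above 0 for all 10 factors, and Meox1 is above 0 in the 3 controls and lowest in KO replicates 1 and 2.

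The factors were then compared in pairs over the 6 libraries, in 45 pairs. Shox2 and Tbx22 had the highest correlation, with Pearson r = 0.976 (exact permutation test, p = 0.00139) and Spearman rho = 1.00 (exact permutation test, p = 0.00278), each the smallest p that 6 libraries allow for it. Adjusted over the 45 pairs, these were p = 0.0625 and p = 0.125 in the exact permutation tests, and neither passed. From low to high, both genes stood in the order control replicate 3, control replicate 2, KO replicate 1, KO replicate 2, control replicate 1 and KO replicate 3. Without the 2 libraries farthest from the Shox2 median r was 0.939. With 3 libraries a group, no correlation within a group is given. Pax9 was next, with r = 0.882 and rho = 0.771 to Shox2 (exact permutation tests, p = 0.0306 and 0.103, adjusted p = 0.688 and 0.716). Its r to Tbx22 was 0.839 and its rho 0.771 (exact permutation tests, p = 0.0569 and 0.103, adjusted p = 0.854 and 0.716). These were the 3 pairs with r over 0.8, and no pair had r under -0.8. The points share the libraries and their tissue make-up. The cartilage markers summed to their highest values in control replicate 3 and KO replicate 1, of which the first had the lowest and the second the fourth highest Shox2. The neuron and glia markers summed to 65.2, 80.7 and 110 FPKM in controls and to 103, 70.0 and 52.8 FPKM in KO libraries, which is the reverse of the Shox2 and Tbx22 order but for control replicate 2 and KO replicate 1. The skeletal muscle sum was also highest, at 597 FPKM, in control replicate 3, and low, at 344 and 377 FPKM, in control replicate 1 and KO replicate 3, although KO replicate 1 had 345 FPKM. The palatal mesenchyme markers had their highest sums, 3063 and 3282 FPKM, in control replicate 1 and KO replicate 3, the libraries of highest Shox2. The rest did not follow the Shox2 order. Their lowest sum, 2320 FPKM, was in KO replicate 2, where Shox2 was 39.3 FPKM. In control replicate 3, with the lowest Shox2 at 30.7 FPKM, the sum was 2831 FPKM. The part of these cells in the covariation was not tested.

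**Figure D5:**
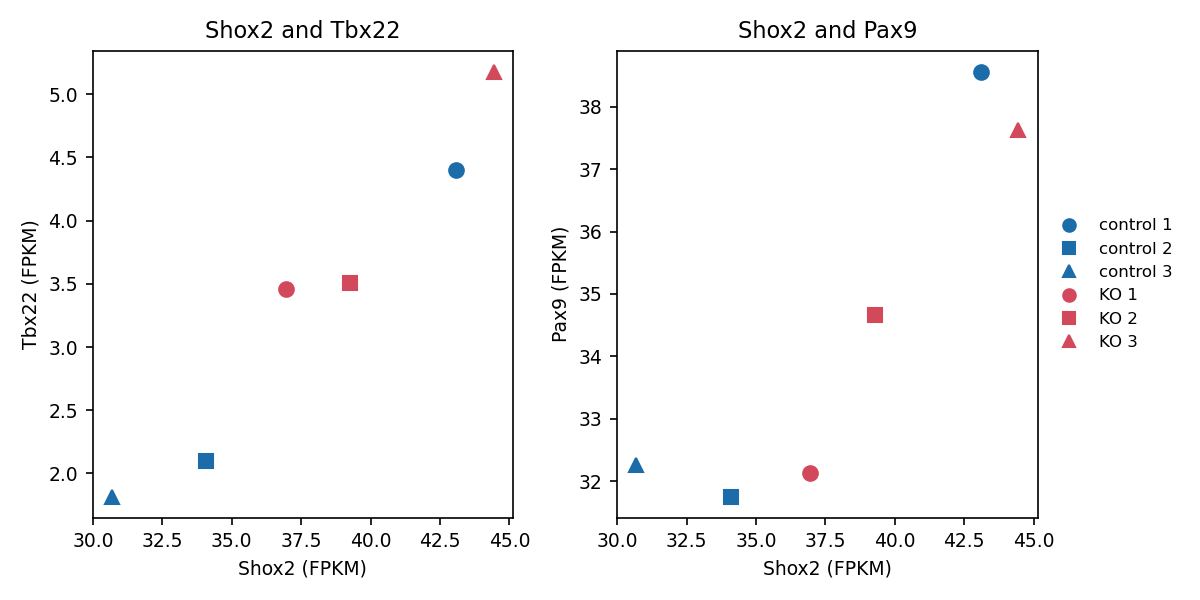
FPKM of Tbx22 (left) and Pax9 (right) against that of Shox2, with 1 point per library, controls blue and KO red. The libraries stand in the same order for Shox2 and Tbx22 (r = 0.976), from control replicate 3 to KO replicate 3, and the axes do not start at 0.

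The sequences before the starts of Shox2, Tbx22 and Pax9 are shown because these genes gave the 3 highest correlations of the 45 pairs. None of these correlations passed after adjustment, and shared regulation was not tested. The RefSeq table matched 6 of the 10 factors, Shox2, Msx1, Barx1, Meox2, Tbx22 and Pax9, in build GRCm38.p6, and not Meox1, Mn1, Osr1 and Osr2. Each sequence is the 250 bases before the start, 5′ to 3′ on the strand of the gene, with the letters TATAAA or their reverse complement in capitals. Shox2 is from chr3:66981772-66982021 on the minus strand, Tbx22 from chrX:107667714-107667963 on the plus strand, the first of 3 RefSeq starts, and Pax9 from chr12:56695221-56695470 on the plus strand. The Shox2 and Tbx22 starts are the GENCODE gene starts. The Pax9 start lies 3704 bases inside the GENCODE gene, and its window holds no annotated exon.
Shox2: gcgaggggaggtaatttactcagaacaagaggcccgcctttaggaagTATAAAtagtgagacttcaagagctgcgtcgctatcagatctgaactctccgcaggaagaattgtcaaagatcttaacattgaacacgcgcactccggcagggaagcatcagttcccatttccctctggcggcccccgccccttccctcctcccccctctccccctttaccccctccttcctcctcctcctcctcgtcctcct
Tbx22: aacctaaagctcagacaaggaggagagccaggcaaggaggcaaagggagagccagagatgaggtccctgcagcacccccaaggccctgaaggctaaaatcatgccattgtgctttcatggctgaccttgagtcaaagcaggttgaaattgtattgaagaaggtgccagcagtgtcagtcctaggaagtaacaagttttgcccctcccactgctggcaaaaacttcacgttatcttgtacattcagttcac
Pax9: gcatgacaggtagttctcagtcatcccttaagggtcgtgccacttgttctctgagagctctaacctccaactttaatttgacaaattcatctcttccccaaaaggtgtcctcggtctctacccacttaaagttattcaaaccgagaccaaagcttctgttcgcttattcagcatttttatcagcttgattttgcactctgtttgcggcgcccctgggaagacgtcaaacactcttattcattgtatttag

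The Shox2 window held TATAAA once, well before the start, and the other 2 windows held none, on either strand. Of 32817 windows of this length in the RefSeq table, 12.4% held it. A homeodomain site (TAATTA), a T-box half-site (AGGTGTGA) and a GLI site (GACCACCCA), searched on both strands, were in none of the 3 windows, beside 4.85%, 1.12% and 0.225% of all windows. The search letters do not overlap each other. The GC content was 55.6% for Shox2, 49.6% for Tbx22 and 43.6% for Pax9, beside a median of 52.4%. A match is a description of the letters, and no match says only that they are not in these windows.

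The genes whose levels were most like each factor over the 6 libraries were the 2 of highest Pearson r among 9315 other protein-coding genes averaging at least 5 FPKM. As maxima over so many genes these r are high by construction, and they are given as a description. They were Lpin2 (r = 0.992) and Sbno2 (0.987) for Shox2, Taf5l (0.986) and Spryd4 (0.969) for Msx1, and Tmco3 (0.998) and Pbx3 (0.980) for Barx1. They were Egfl6 (0.993) and Klhl18 (0.989) for Meox2, Camsap1 (0.994) and Lcp1 (0.990) for Tbx22, and Pigs (0.979) and Farp1 (0.974) for Mn1. They were Rspry1 (0.980) and Twist2 (0.971) for Osr1, Sms (0.991) and Aida (0.981) for Osr2, E2f7 (0.995) and Tex10 (0.980) for Pax9, and Dok4 (0.996) and Efna3 (0.990) for Meox1. Pbx3 and Twist2 are themselves transcription factors, a homeobox and a helix-loop-helix protein. Between 8 genes, for Osr1, and 28, for Tbx22 and Meox1, had r over 0.95.

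The patterning factors act among other transcription factors of the palatal mesenchyme, of which 52 were listed and 51 tested, all but Dlx4. None passed in limma and 4 had an unadjusted p under 0.05, beside 0.333% and 4.01% of all tested genes. There were 19 above and 32 below 0, with a median of -0.040, beside 5968 above and 8746 below 0 over all tested genes, so both leaned below 0. The groups did not overlap for 3 of them, beside 9.06% of all tested genes. Dlx1, a homeobox factor of the jaw mesenchyme, stood at 34.7, 33.1 and 31.5 FPKM in controls and at 22.2, 18.4 and 29.5 FPKM in KO libraries (limma, adjusted p = 0.874). Msx2, the relative of Msx1, stood at 6.48, 5.26 and 7.88 FPKM in controls and at 5.09, 2.63 and 4.67 FPKM in KO libraries, a difference of -0.58 ± 0.21 (SE; limma, adjusted p = 1.00). Both had all 3 KO values below all 3 controls, as Meox1 had. Snai2, a zinc-finger factor of neural crest cells, was at 21.7 ± 0.908 and 24.3 ± 1.24 FPKM (SD, n = 3 each) with KO higher in each library. Meis2, a homeobox cofactor, was at 31.6 ± 2.97 and 38.2 ± 2.87 FPKM with overlap.

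Signals and targets linked to the factors numbered 34, all tested, among them Bmp, Hedgehog, Fgf and Wnt genes and the semaphorins. None passed in limma and none had an unadjusted p under 0.05, beside 0.333% and 4.01% of all tested genes. At such shares few or none would be reached in a list of 34. There were 17 above and 17 below 0, with a median of 0.0029, beside 5968 above and 8746 below 0 over all tested genes. The groups did not overlap for 2 of them, Bmp4 with KO lower and Sfrp2 with KO higher, beside 9.06% of all tested genes. Sfrp2, a secreted Wnt modulator, was at 412 ± 20.1 FPKM in the controls and 493 ± 71.9 FPKM in the KO libraries (n = 3 each, SD), a difference of 0.25 ± 0.11 (SE; limma, adjusted p = 1.00). The transcription factor Gli1, a target of Hedgehog signalling, was at 46.5 ± 3.22 and 40.9 ± 3.92 FPKM. Axin2, a target of Wnt signalling, was at 15.7 ± 1.56 and 17.3 ± 0.556 FPKM. Sema3e, a guidance cue, stood at 3.82, 2.67 and 2.86 FPKM in controls and at 3.55, 3.59 and 4.10 FPKM in KO libraries. Its order over the libraries was that of Shox2 and Tbx22 except for control replicates 2 and 3.

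Of 10 near relatives of the factors, 8 were tested and 0 passed in limma, with 1, Msx2, at an unadjusted p under 0.05, beside 0.333% and 4.01% of all tested genes. Pax1, the relative of Pax9, stood at 3.50, 3.67 and 5.13 FPKM in controls and at 7.30, 2.56 and 1.73 FPKM in KO libraries. The highest and the lowest 2 values all belonged to KO libraries, and the cartilage markers stood highest in the same KO replicate 1 and lowest in the same replicates 2 and 3. Tbx1 stood at 15.4, 15.2 and 16.1 FPKM in controls and at 19.6, 13.5 and 8.19 FPKM in KO libraries, and Tbx15 at 11.6, 16.6 and 17.7 FPKM and at 20.2, 12.0 and 7.24 FPKM. The part of cartilage in these levels was not tested. Tbx2, Tbx3, Tbx18 and Barx2 were at 33.3 ± 4.16, 19.7 ± 2.65, 1.65 ± 0.851 and 4.26 ± 1.47 FPKM in the controls and at 34.9 ± 1.12, 21.4 ± 2.49, 2.37 ± 1.33 and 3.68 ± 1.00 FPKM in the KO libraries (n = 3 each, SD). Msx3 and Tbx20 were listed at 0 in all 6 libraries.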

How the data were processed

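RNA of 3 control and 3 KO palatal shelf samples was sequenced. The authors deposited FPKM values, which they scaled by the length of each gene and by the size of each library, in 1 table, and the unit is taken from its name. The submitters' processing notes name the build mm10 and DESeq2 version 1.5.2; the sources used here give no aligner, counter, annotation or strand setting. Depth is therefore unknown and no counting interval is given.

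Libraries were grouped by title and columns matched by library name. Symbols and coordinates came from GENCODE M21 (GRCm38) by gene ID, which matched 50876 of 55631 IDs. Log2(FPKM + 1) was fitted in R version 4.3.3 by limma version 3.58.1 for 14714 genes averaging at least 1 FPKM, with genotype as the only term and a trended eBayes step. Two-sided p-values had Benjamini-Hochberg adjustment over all tested genes at 0.05. This scale understates changes of low genes such as Tbx22. The fit was tested on simulated data with known changes. Exact permutation tests between groups, of levels and ratios, used scipy version 1.17.1. Those of the correlations ran over all orders of the 6 libraries in Python version 3.11.15.

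The members, lists and tests were chosen with earlier results of these data known. Besides the members, the text names the 4 genes of smallest p in each of the 2 linked lists, near relatives with a mean of at least 1 FPKM, overlapping genes, Xist, Ddx3y, Bcar1, and for each member the 2 genes most like it. The ratios and pairwise correlations were added after the values had been seen. Bmp4, Msx3, Tbx20 and Dlx4 were also named after their values had been seen. Alternatives were pseudocounts of 0.1 and 0.01, no filter and filters at 0.1 and 5 FPKM, scaling by quantiles, by median of ratios and to TPM, eBayes without trend or robust, library weights, the replicate block, embryo sex in the model, and leaving out 1 library at a time. Marker lists for tooth epithelium, early bone, neurons and glia, and nasal epithelium overlapped between groups in summed level.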

Additional observations from a re-analysis of the deposited data

How the results depend on the processing

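With 3 libraries a group and unknown depth, the 95% intervals given above are the precision of each difference, and it is lowest for Tbx22. The counts of called genes among the patterning factors, the other palatal transcription factors and the linked signals and targets were 0 in all 19 settings tried, and the smallest adjusted p of a factor in limma was 0.192, for Meox1 with library weights. Tbx22 and Meox1 could not be tested with the filter at 5 FPKM. Shox2, Barx1, Meox2, Tbx22 and Meox1 kept their direction in each alternative in which they were tested. The filters, eBayes without trend or robust, and the replicate block leave each difference unchanged, so those alternatives could not test direction. The difference turned its sign for Mn1 with quantile normalization (6e-04), TPM (4e-04), library weights (0.075) and sex as a covariate (0.047), and for Osr2 with library weights (-0.0096). KO replicate 2 is the only female library, so the sex term gives the same differences as leaving it out, and these count as 1 alternative. The 2 scalings also moved the median over all tested genes, from -0.021 to -0.0077 and 0.0079, and for library weights the cause was not tested. With 1 library left out, in turn, the range was -0.088 to 0.047 for Mn1, -0.093 to 0.19 for Osr1, -0.032 to 0.094 for Osr2, -0.028 to 0.12 for Pax9 and -0.40 to 5e-04 for Msx1. The balance of anterior over posterior factors ran from -0.30 to -0.012 in the same fits and stayed within 1 SD of its value.

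The labels do not say whether libraries of the same replicate number are paired, and correlations over 3 libraries a group cannot decide it. Same-numbered control and KO libraries had correlations of their deviations from the group mean of 0.019, 0.305 and -0.24. The highest correlation, 0.314, was that of control replicate 1 with KO replicate 3. With the replicate block, 0 patterning factors passed, and 41 genes were higher and 1 lower over all genes, beside 48 and 1 without it.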
